A study of Mus musculus with 4 samples.

Results

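Neutrophils of mouse lung tumors were chosen from a single-cell RNA-seq matrix of viable tumor cells by their unique molecular identifier (UMI) counts, a UMI being 1 captured transcript. A cell was kept when it had at least 200 detected genes and no more than 13.4% of its UMIs in the 13 mitochondrial genes, which left 19892 of 20351 cells. A kept cell was called a neutrophil when S100a8 plus S100a9 had at least 20 UMIs, Retnlg plus Csf3r plus Cxcr2 at least 2, the 3 C1q genes together no more than 2, Cd3d, Cd3e, Cd3g and Cd79a none, and Marco, Fabp1, Ctsk and Atp6v0d2 together no more than 1. The rule selected 1489 cells, 7.49% of the kept cells (exact binomial 95% interval 7.12 to 7.86), which held 3.69% of the UMIs. With a minimum of 500 genes a cell the share was 3.59%. S100a8 and S100a9 encode the calcium-binding subunits of calprotectin, Retnlg a resistin-like protein, Csf3r the receptor for granulocyte colony-stimulating factor (G-CSF) and Cxcr2 the receptor for ELR-type CXC chemokines.

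The cells came from 4 female mice in which intratracheal Lenti-Cre had started tumors 16 weeks earlier and which received 4 mg doses of tamoxifen over the last 2 weeks. All 4 carried KrasLSL-G12D, Lkb1XTR/XTR and the Cre reporter Rosa26LSL-tdTomato, and the 2 Restored mice, unlike the 2 Non-Restored mice, also carried FLPo-ERT2 at Rosa26. Lkb1XTR is a gene trap that Cre switches on and FLPo-ERT2, where present, removes. FLPo-ERT2 is expressed from Rosa26 and is not limited to tumor cells, while Cre acts where the lentivirus entered. Micro-dissected tumors were dissociated with enzymes, DAPI-negative cells were sorted, and libraries were made with the Chromium Single Cell 3′ v3 kit. The matrix pools the 4 mice and no map from its cells to the mice was used here, so the neutrophils count as 1 sample, Restored and Non-Restored neutrophils were not compared, barcodes shared between libraries were not counted, and no value carries a p-value. Intervals cover counting error only.

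Neutrophils are short-lived phagocytes that leave the bone marrow after their last division and carry ready-made granules, whose proteins are produced in order during maturation: myeloperoxidase and serine proteases of primary granules first, then lactoferrin, cathelicidin and other proteins of specific granules, then gelatinase. G-CSF drives their production, CXCR2 ligands draw them into tissue, and formyl peptides, complement fragments and lipids guide them at the site. In tumors, neutrophils have been described both as killers of tumor cells and as cells that restrain T cells.

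Neutrophils were the shallowest of the cell classes compared. They had a median of 950 UMIs (quartiles 735 and 1389, range 501 to 18782) and 464 genes, against 2120 UMIs and 923 genes in the 18403 other kept cells. Monocytes, taken as cells with at least 3 UMIs of Ly6c2, Ccr2 and F13a1 together and 1 of Csf1r (262 cells), had a median of 3269 UMIs, C1q macrophages (2101 cells) 4342, T cells (3536 cells) 1713 and B cells (1539 cells) 1446. When every cell was thinned at random to 500 UMIs, the median number of genes was 297 in neutrophils, 293 in T cells, 294 in B cells, 324 in C1q macrophages and 332.5 in monocytes. At equal depth, neutrophils therefore had as many genes as lymphocytes, within 4 genes of the T cell median.

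Mitochondrial and ribosomal transcripts took a small share of neutrophil RNA. The median share of UMIs in mitochondrial genes was 0.463% in neutrophils, 3.74% in monocytes, 5.22% in T cells, 5.43% in C1q macrophages and 7.15% in B cells. Ribosomal protein genes held 9.39% of neutrophil UMIs and 23.8% of those in other kept cells, and 71 of 87 such genes were lower by at least 2-fold in neutrophils and 0 higher, where 19.7% of all genes tested were lower. All 12 mitochondrial genes tested were lower. The filter of 13.4% removed 6 cells that passed the marker thresholds and the gene minimum, so mitochondrial share set few of the members.

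The genes that chose the cells are given as a description. S100a8 and S100a9 held 13.5% of all neutrophil UMIs, with a median of 144 UMIs a cell. The mean per cell was 0.21 UMIs in monocytes, 0.15 in T cells, 0.13 in C1q macrophages and 0.11 in B cells, classes that were themselves limited to fewer than 20. Without that limit, 66 of 3602 T cells (1.83%) and 12 of 1551 B cells (0.774%) reached 20. Retnlg had 7699 CPM (UMIs per 1000000, summed over the cells of a class) in neutrophils and 4.19 in monocytes, Csf3r 2017 and 63.9 CPM, and Cxcr2 1313 and 24.1 CPM. Neutrophils held 87.5% of all Retnlg UMIs in kept cells, 77.5% of Cxcr2 and 74.2% of Csf3r.

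The steps of the rule removed few cells after the first. Of 1746 kept cells with at least 20 UMIs of S100a8 plus S100a9, 1629 passed the Retnlg, Csf3r and Cxcr2 threshold, 1607 the C1q limit, 1516 the Cd3 limit, 1500 the Cd79a limit and 1489 the macrophage limit. Cells that failed a later step stay among the other kept cells. Just inside the first threshold, the 35 neutrophils with 20 to 24 UMIs had 9955 CPM of 10 neutrophil genes that the rule did not use. Just outside, 34 cells with 15 to 19 UMIs that met the other thresholds had 4201 CPM of these genes, with 8755 CPM of a dendritic cell list and 6696 CPM of an epithelial list, against 518 and 201 CPM inside. At the second threshold, 75 cells with exactly 2 UMIs had 6344 CPM of the neutrophil genes and 62 cells with 1 UMI had 7748 CPM.

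**Figure D1:**
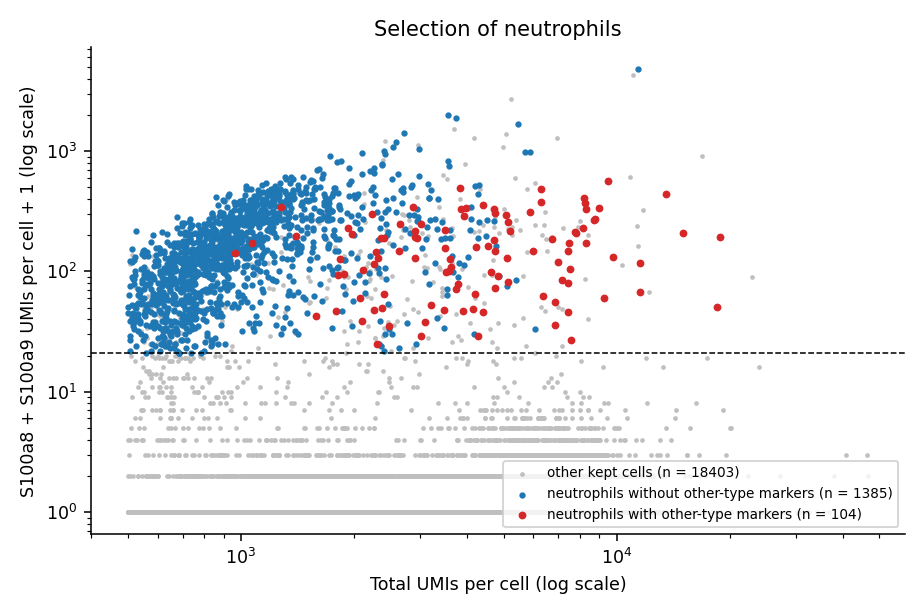
Each point is a kept cell, with its total UMIs (horizontal, log scale) against its S100a8 plus S100a9 UMIs plus 1 (vertical, log scale); the dashed line is the threshold of 20 UMIs. Blue points are the 1385 neutrophils without other-type markers, red points the 104 that carry them, mostly above 1393 UMIs, and gray points above the line failed a later threshold.

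The 10 genes used to check the label were Ly6g, Il1r2, Mmp9, Mmp8, Hdc, Trem1, G0s2, Msrb1, Clec4d and Cd177. Together they had 9026 CPM in neutrophils (exact Poisson 95% interval 8900 to 9155), 1000 in monocytes, 491 in C1q macrophages, 106 in T cells and 55.7 in B cells. At least 1 UMI of the list was found in 1487 of the 1489 neutrophils and at least 5 in 1381. All 10 were higher than in the other kept cells by at least 2-fold, as were 13.7% of all genes tested, and all 10 were also higher per cell. Ly6g, which encodes the surface antigen most used to define mouse neutrophils, was low at 88.8 CPM and had a UMI in 4.1% of neutrophils thinned to 500 UMIs, but had 0 UMIs in monocytes and B cells. Mmp9, the gelatinase B gene, had a UMI in 48.7% of thinned neutrophils (exact interval 46.1 to 51.3) and 0.028% of thinned T cells, and in 70.4% and 0.368% without thinning.

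Some neutrophils also carried markers of other cell types. By limits chosen after the data were seen, 104 cells (6.98%) did so. The limits were at least 10 UMIs of the MHC class II genes H2-Aa, H2-Ab1 and H2-Eb1 with Cd74, of the epithelial list or of the macrophage list. For the endothelial, T and NK, B, basophil and mast cell and stromal lists the limit was at least 5. The dendritic cell list also holds Flt3 and Ccr7, which the limit did not use. Their median depth was 4209 UMIs, against 915 in the 1385 neutrophils without them. The MHC class II and Cd74 limit accounted for 72 of these cells, the endothelial list for 18 and the epithelial list for 10. B cells accounted for 6, macrophages for 5, T and NK cells for 4, basophils and mast cells for 4 and stroma for 2. Some cells were under more than 1 list.

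The 72 cells past the MHC class II and Cd74 limit held 94.5% of the UMIs of those genes in all neutrophils. They also held 144 of 154 UMIs of Siglech, a plasmacytoid dendritic cell receptor. The 10 epithelial cells held 89.5% of the epithelial list's UMIs and the 18 endothelial cells 90.7% of theirs. No cell had more than 2 UMIs of the eosinophil list, and 3 of its 5 genes had 0 UMIs, while erythroid and platelet lists were at 1.9 and 3.3 CPM. No doublet caller was run, and whether these cells are 2 cells in a droplet was not tested.

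Without those 104 cells, Cst3 (cystatin C) had 987 CPM in place of 2715, the chemokine gene Ccl4 168 in place of 415, the dendritic and B cell regulator Irf8 20.5 in place of 153, Il6 1.87 in place of 14 and the surfactant gene Sftpc 99.6 in place of 1066. The neutrophil check list stood at 10985 CPM in place of 9026. Sftpc is in the epithelial list that helped to choose the 104 cells, so its fall follows in part from that choice. Cst3, Ccl4, Irf8 and Il6 were in none of the lists that chose them, and were lower without these 6.98% of the cells. The check list was not lower.

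Cells with these markers were deeper. The limits are raw counts, which deep cells reach more easily, and the part of this in the difference was not tested. The neutrophils were put in 4 groups of 372 or 373 cells by total UMIs, from 501 to 735, 735 to 950, 953 to 1389 and 1393 to 18782. Cells with other-type markers made up 0, 0, 0.806 and 27.2% of the groups. The check list was at 11962, 12770, 12004 and 6362 CPM, and at 9066 CPM in the deepest group without those cells. The dendritic cell list was at 258, 273, 266 and 7098 CPM, and at 312 in the deepest group without them. The first 3 groups were alike in these readings, and the gap in the dendritic cell list went with the marked cells, which that list helped to choose, but the check list remained lower in the deepest group without them.

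The deepest group, with the marked cells, also differed in RNA makeup. The share of UMIs in S100a8 and S100a9 was 13.2, 16.8, 22.6 and 9.36% from the shallowest to the deepest group, and the median mitochondrial share 0.347, 0.440, 0.399 and 1.39%. Without the marked cells, the S100a8 and S100a9 share of the deepest group was 14.5%, inside the range of the other groups. Its median mitochondrial share was then 0.583%. The monocyte list was at 220, 199, 244 and 1017 CPM, and at 959 CPM in the deepest group without the marked cells, so that list was not removed with them. The summed suppressive list described below was at 8941, 7402, 6016 and 3491 CPM, and the cytokines at 19976, 19332, 17271 and 12702 CPM. In the deepest group without the marked cells, the suppressive list was at 4628 CPM and the cytokines at 15931. These lists were lower at each step of depth, and the part of S100a8 and S100a9 in the totals, which differed between the groups, was not tested.

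**Figure D2:**
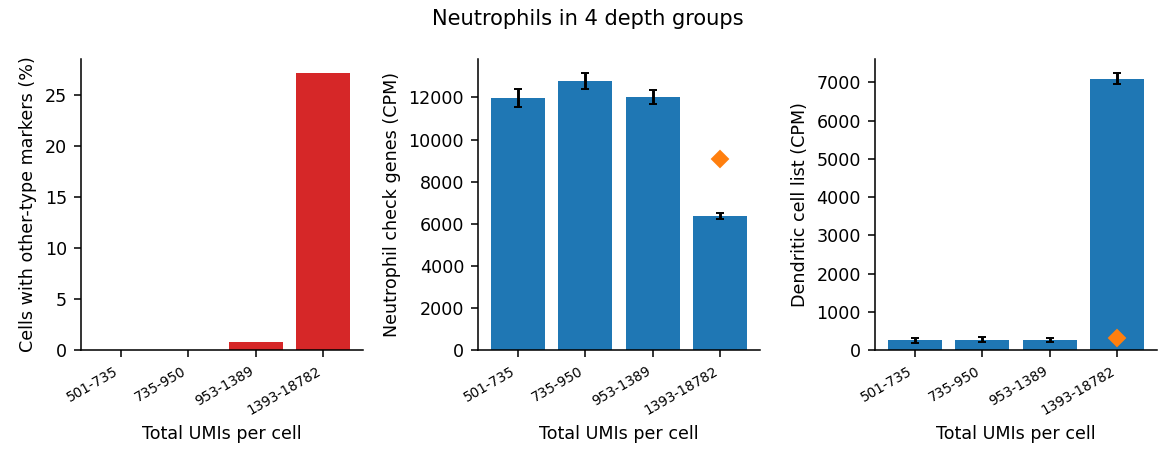
Bars show the 4 depth groups of neutrophils, from 501 to 735 UMIs on the left to 1393 to 18782 on the right, with the percent of cells that carry other-type markers, the summed CPM of the 10 check genes and the summed CPM of the dendritic cell list; error bars are exact Poisson 95% intervals. Orange diamonds give the deepest group without those cells, at 9066 and 312 CPM.

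The neutrophils were then set against all other kept cells over 5373 genes with a mean of at least 20 CPM, leaving out the genes of the rule. With 1 sample there was no test, and a gene was called past 2-fold when its log2 ratio with a pseudocount of 10 CPM was at least 1 in size. In neutrophils, 737 genes (13.7%) were higher and 1058 (19.7%) lower. Because S100a8 and S100a9 take 13.5% of the totals, the comparison was repeated with the genes of the rule left out of the totals, which gave 918 higher and 795 lower, and as UMIs per cell, which gave 249 higher and 2616 lower. Higher genes were 41.1% of calls by CPM, 53.6% without the genes of the rule and 8.69% per cell. The median log2 ratio over all genes was -0.18 by CPM, and the other scales moved it by 0.18 and -0.79. Against monocytes, 591 of 5022 genes (11.8%) were higher and 753 (15%) lower, and higher genes were 44.0% of calls by CPM, 59.5% without the genes of the rule and 5.54% per cell, with shifts of the median of 0.19 and -1.03. Values below are by CPM unless stated. Counts of list genes against monocytes stand beside 11.8% higher and 15% lower over all genes.

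The 25 genes with the largest ratio to other cells, among those of at least 100 CPM, were Mmp9, Gm5483, BC100530, G0s2, Stfa2l1, Mmp8, Ifitm1, Trem1, Clec4d, H2-Q10, Pglyrp1, Steap4, Acod1, Mxd1, Ngp, Rdh12, Hp, Il1f9, Slfn4, Hdc, Dhrs9, Cyp4f18, Slc2a3, Lcn2 and Slfn1. All 25 were also higher per cell by at least 2.97 on the log2 scale. They include gelatinase and specific granule proteins, intracellular protease inhibitors of the stefin family, activating receptors and enzymes of retinol, itaconate, histamine and lipid metabolism.

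Mmp9 (chromosome 2, 164940780 to 164955850, mm10) had 1164 CPM in neutrophils and 10.2 in the other cells, 114-fold higher, and neutrophils held 81.3% of its UMIs. G0s2, an inhibitor of the lipase ATGL, had 1504 and 26.6 CPM. Il1f9, which encodes the cytokine IL-36γ, had 232 and 2.2 CPM. Hdc, the histamine-forming enzyme, had 1445 and 68.1 CPM. Acod1, which makes itaconate, had 422 and 10.7 CPM, Steap4, a metalloreductase, 308 and 4.9 CPM, and Cyp4f18, a leukotriene hydroxylase, 614 and 25.6 CPM. These 7 genes had 54.5 CPM or less in monocytes.

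The 15 lowest, among genes of at least 100 CPM in the other cells, were Igkc, Scgb1a1, Ccl17, Mmp12, Mrc1, Jchain, Igha, Asgr2, Mgp, Chil3, Gpnmb, Nov, Axl, H2-M2 and Apoe. They are genes of plasma cells, club cells, macrophages, dendritic cells and stroma. H2-M2 had 0 UMIs in neutrophils and 127 CPM elsewhere. Igkc had 35.5 CPM in neutrophils and a UMI in 1.4% of thinned neutrophils, against 1.9% of thinned T cells, a class that does not make it.

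Primary granule genes were nearly absent. Mpo (myeloperoxidase) and Elane (neutrophil elastase) had 0 UMIs in 1489 cells, where a count of 0 allows up to 3 UMIs (1.40 CPM). Prtn3, Ctsg, Prss57 and Ms4a3 had 8, 1, 15 and 5 UMIs. The list summed to 13.6 CPM, against 10.5 in monocytes and 44.3 in T cells, and no member reached the mean of 20 CPM needed for a comparison.

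Of 7 specific granule genes compared, 6 were higher than in other cells and 1 lower, where 13.7% and 19.7% of all genes were. Their median log2 ratio was 3.97. Lcn2, the siderophore-binding lipocalin, had 2451 CPM (2385 to 2518) in neutrophils, 139 in other cells and 3.14 in monocytes. Hp (haptoglobin) had 1916, 85.7 and 502 CPM. Ngp (neutrophilic granule protein) had 714, 25.7 and 0 CPM, and Camp (cathelicidin) 587, 28.2 and 1.05 CPM. Ltf (lactoferrin) had 120 CPM and Cd177 129 CPM. Chil3, a chitinase-like protein also made by alveolar macrophages, had 397 CPM in neutrophils, 661 in monocytes and 6344 in other cells. Because of Chil3, the summed list was not higher, with a log2 ratio of -0.07 (-0.10 to -0.05) that turned to 0.15 without the genes of the rule in the totals and to -1.15 per cell, and was 4.36 with Chil3 left out. Against monocytes, 5 of the 7 genes were higher and 0 lower, and Chil3 and Cd177 had log2 ratios of -0.72 and 0.62. Per cell, 4 were higher than in monocytes and Chil3 was lower.

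Genes of gelatinase granules and secretory proteins were higher in neutrophils in 7 of 8 cases, where 13.7% of all genes were. The log2 ratio of the sum was 3.39 (3.36 to 3.42). Wfdc21, a small whey acidic protein, had 2855 CPM in neutrophils and 206 in other cells. Pglyrp1, a peptidoglycan-binding protein, had 972 and 34.5 CPM, and Mmp8 (collagenase) 789 and 21.2 CPM. Slc11a1, the metal transporter NRAMP1, had 171 and 14.9 CPM, Adam8 355 and 25 CPM and Itgam, the integrin CD11b, 253 and 20.3 CPM. Slpi, a protease inhibitor also made by epithelium, had 389 and 332 CPM, and its log2 ratio of 0.22 became -0.82 per cell. Against monocytes, 6 of the 8 were higher, and Wfdc21 was at 6.28 CPM there.

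As sums over all neutrophils, granule genes thus lay at different levels, with primary granule RNA near 0, Camp, Ngp and Ltf between 120 and 714 CPM and Lcn2, Hp, Wfdc21 and Mmp9 above 1000.

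Camp, Ngp and Ltf were held by few cells. Camp had a UMI in 21 of the 1489 neutrophils, Ltf in 21 and Ngp in 140, while Lcn2 had one in 1057 and Wfdc21 in 1223. The 20 richest cells held 99.9% of Camp UMIs, 99.6% of Ltf UMIs and 88.6% of Ngp UMIs, but 16.6% of Lcn2 UMIs. The 13 cells with at least 10 UMIs of Camp, Ngp and Ltf together held 92.3% of all UMIs of the 3 genes, between 18 and 1376 in a cell. This cut was set after the data were seen, and the highest of the other 1476 cells had 9. The 3 genes were thus near absent from most neutrophils and abundant in a small group. Neutrophils held 44.3% of Camp UMIs and 51.5% of Ngp UMIs in kept cells, so cells outside the rule also held these genes. The richest of the 13 cells had 1 UMI of Retnlg and 0 of Cxcr2, where the rule asks for 2 with Csf3r. How many cells of this kind failed the rule was not tested.

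These 13 cells had a median of 2587 UMIs (2104 to 11379), against 944 in the rest, and none carried other-type markers. Genes not used to choose them also differed in level. Lcn2 was at 14378 CPM in the 13 cells and 2186 in the rest, Chil3 at 6276 and 266, Wfdc21 at 9134 and 2715, and Cd177 at 989 and 110. Cebpe, a transcription factor of granule gene expression, was at 258 and 13.4 CPM (12 and 28 UMIs), with a UMI in 3 of the 13 cells. Cybb was at 1913 and 568 CPM, and Ly6g at 580 and 77.9. The sums over the 13 cells weigh most the cell with 11379 UMIs, and no value was computed without it. Mmp8 was at 2515 and 751 CPM, Pglyrp1 at 1956 and 950, Mmp9 at 1633 and 1153 and the gelatinase list at 16076 and 6745. Hp at 1676 and 1921 CPM, Slc11a1 at 64.5 and 173 and Slpi at 236 and 392 were not higher. Neither were Adam8 at 322 and 356 and Itgam at 215 and 254. The granule genes thus did not all stand higher in the 13 cells.

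The cytokine list was lower in the same 13 cells, at 2987 against 15647 CPM, and so was the stefin list, at 1870 against 4895 CPM. In the stefin list the cystatin Cst3 was at 516 against 2764 CPM. All 104 cells with other-type markers were in the rest, and their part was not tested. BC100530 was at 494 against 579 CPM, Stfa2l1 at 387 against 499 and Gm5483 at 193 against 743. Stfa3 was higher, at 193 against 22.9 CPM. Each of these 4 had a UMI in 2 of the 13 cells. Il1b was at 1096 CPM, against 9529 in the rest, Cxcl2 at 1247 against 2969, Ccl6 at 258 against 1467, Clec4d at 64.5 against 774 and Mxd1 at 580 against 1916. The suppressive list was at 322 against 5268 CPM. Il1b had 0 UMIs in 6 of the 13 cells, although they were deeper than most neutrophils. The cell with 1376 UMIs of the 3 granule genes had 11379 UMIs in all, 35 UMIs of cell cycle genes and 0 of Il1b, and held all 6 Fcnb UMIs and 5 of 8 Prtn3 UMIs. The other 12 had no cell cycle UMI.

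The promoters of Camp, Ngp, Ltf and Lcn2 are printed because the first 3 were held by the same few cells and Lcn2 was higher in those cells but found in most neutrophils. The windows are the 250 bases before each RefSeq start in GRCm38.p6, on the strand of the gene, with matches to the C/EBP-like core TTGCNNAA or its reverse complement TTNNGCAA in capitals. They are chr9:109849457-109849706 (-) for Camp, chr9:110419558-110419807 (+) for Ngp, chr9:111019042-111019291 (+) for Ltf and chr2:32387740-32387989 (-) for Lcn2. For all 4 genes the GENCODE vM21 gene model starts farther upstream than RefSeq does, so the windows overlap it.
Camp: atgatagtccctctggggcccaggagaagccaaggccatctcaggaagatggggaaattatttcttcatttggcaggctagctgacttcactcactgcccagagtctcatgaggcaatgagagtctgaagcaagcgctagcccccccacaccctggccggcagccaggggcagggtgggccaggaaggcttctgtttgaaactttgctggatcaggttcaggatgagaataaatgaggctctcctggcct
Ngp: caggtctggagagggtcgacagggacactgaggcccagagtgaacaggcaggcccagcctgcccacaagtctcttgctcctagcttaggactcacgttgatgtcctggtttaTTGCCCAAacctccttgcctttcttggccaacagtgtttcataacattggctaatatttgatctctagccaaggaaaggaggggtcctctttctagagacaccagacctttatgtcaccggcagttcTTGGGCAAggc
Ltf: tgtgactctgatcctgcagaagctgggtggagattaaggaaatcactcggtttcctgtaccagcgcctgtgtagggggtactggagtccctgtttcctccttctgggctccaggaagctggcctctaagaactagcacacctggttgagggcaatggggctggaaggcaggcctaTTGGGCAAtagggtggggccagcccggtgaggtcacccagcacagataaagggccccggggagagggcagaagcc
Lcn2: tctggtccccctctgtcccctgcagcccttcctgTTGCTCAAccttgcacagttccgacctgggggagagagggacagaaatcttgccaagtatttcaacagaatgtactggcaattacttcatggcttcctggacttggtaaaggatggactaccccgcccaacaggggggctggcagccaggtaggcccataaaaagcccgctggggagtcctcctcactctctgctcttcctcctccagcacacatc

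Ngp had 2 matches, beginning 138 and 11 bases before the start, Ltf 1 at 75 and Lcn2 1 at 216, and Camp had none. A match was found in 4 of the 7 specific granule genes with a RefSeq promoter (Ltf, Ngp, Lcn2 and Fcnb), in 5 of the 20 matched among the 25 genes highest in neutrophils (Mmp8, Steap4, Ngp, Rdh12 and Lcn2) and in 2930 of 27025 genes (10.8%) in all. The PU.1-like core AGGAAGT, or ACTTCCT on the other strand, was in none of the 4 windows. It was in 2 of the 7 specific granule genes (Chil3 and Fcnb) and in 5 of the same 20 genes (Mmp8, Trem1, Acod1, Slfn4 and Slfn1). Of all genes, 2377 of 27025 (8.80%) had it. A match describes these letters only.

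Stefins, intracellular inhibitors of cysteine proteases encoded in a cluster on chromosome 16, were among the genes with the highest ratios. Gm5483 had 731 CPM in neutrophils and 6.71 in other cells, BC100530 577 and 3.42 CPM, Stfa2l1 497 and 3.63 CPM and Stfa2 84.6 and 0.34 CPM. All 4 were at 2.09 CPM or less in monocytes. Their 3′ ends are alike, with 41.5% of the 50-base windows at the 3′ end of BC100530, 35.6% of Gm5483, 16.8% of Stfa2l1 and 14.7% of Stfa2 also found in another gene, so counts may be shared between relatives. The unlinked cystatins Cstb and Cst3 had 156 and 2715 CPM, against 323 and 3606 in other cells, and Cst3 had 987 CPM without the cells that carried other-type markers. The sum of all 10 genes of the list had a log2 ratio of 0.29 to other cells and of -0.15 without those cells.

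The phagocyte oxidase had a mixed pattern. Of 6 genes, 4 were higher in neutrophils, where 13.7% of all genes were. Among them were Ncf1 (p47phox) at 416 CPM against 112 in other cells, Ncf4 (p40phox) at 316 against 73.2 and Rac2 at 636 against 260. The membrane subunits did not pass 2-fold, with Cybb (gp91phox) at 597 against 692 CPM and Cyba (p22phox) at 830 against 910. The sign for both flipped without the genes of the rule in the totals, to 0.01 and 0.09 on the log2 scale, and per cell both were lower, at -1.26 and -1.19. Against monocytes, Ncf1 was higher and Cybb lower, at 597 against 1218 CPM, while per cell 0 were higher and 2 lower.

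All 7 receptors for chemoattractants were higher than in other cells, where 13.7% of all genes were, and 6 of them were higher per cell. Ccr1, a receptor for CC chemokines, had 885 CPM in neutrophils, 139 in monocytes and 70.1 in other cells. C5ar1, the C5a receptor, had 420, 34.6 and 41.1 CPM, Fpr2 372, 25.1 and 28.8 CPM and Fpr1, its fellow formyl peptide receptor, 226, 4.19 and 32.1 CPM. Ptafr, for platelet-activating factor, had 329, 86.9 and 40.4 CPM. Cxcr4, which holds neutrophils in the marrow and is regained with age, had 260, 60.7 and 55.2 CPM, and Ltb4r1, for leukotriene B4, 122, 93.2 and 29.4 CPM. Against monocytes, 6 of 7 were higher and Ltb4r1 did not pass 2-fold.

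Adhesion genes were higher in 8 of 9 cases, where 13.7% of all genes were. Cd44 had 1456 CPM in neutrophils and 372 in other cells, Selplg (PSGL-1) 897 and 194 CPM and Itgal (LFA-1) 706 and 103 CPM. Icam1 did not pass 2-fold, at 110 and 142 CPM. Per cell, 4 of the 9 were higher and Icam1 was lower.

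Among 18 receptors for microbes, antibodies and cytokines, 12 were higher than in other cells and Fcgr2b was lower. Of all genes, 13.7% were higher and 19.7% lower. Trem1, an amplifier of inflammatory signaling, had 865 CPM in neutrophils, 42.9 in monocytes and 26.2 in other cells, and Clec4e (Mincle) and Clec4d, C-type lectins for glycolipids, had 967 and 758 CPM against 53.3 and 23.1. Il1r2, the IL-1 decoy receptor, had 483 CPM in neutrophils and 205 in C1q macrophages. Cd14, a lipopolysaccharide co-receptor, had 1715 and 1517 CPM in these classes. The inhibitory Fcgr2b was at 68.7 CPM in neutrophils and 638 in C1q macrophages, while the activating Fcgr4 and Fcgr3 were at 99.6 and 373 CPM in neutrophils. Per cell, 6 of the 18 were higher.

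G-CSF signaling genes downstream of Csf3r were higher in 3 of 6 cases, where 13.7% of all genes were, and in 0 of 6 per cell. The 3 were Pim1 at 1237 against 351 CPM, Stat3 at 478 against 162 and Stat5b at 67.8 against 26.3. Socs3, the feedback inhibitor, had 418 CPM in neutrophils, 246 in other cells and 637 in monocytes.

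**Figure D3:**
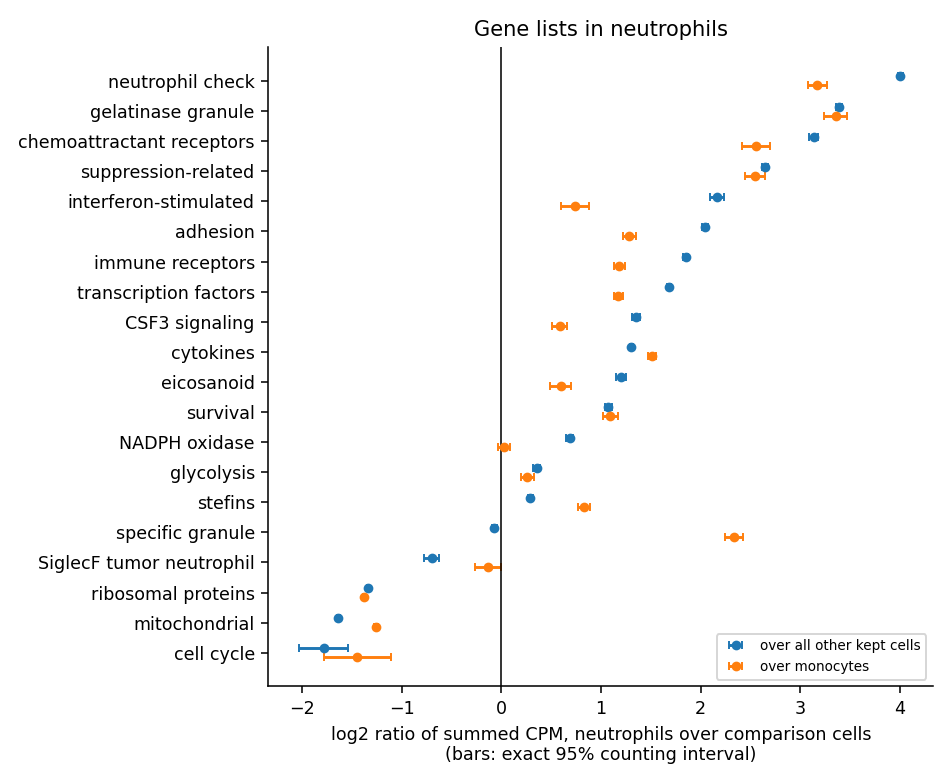
For each gene list, the log2 ratio of summed UMIs as CPM in neutrophils over the other kept cells and over monocytes, with exact 95% intervals for counting error. Values to the right of 0 are higher in neutrophils, such as the gelatinase list at 3.39 over other cells, and the specific granule list lies near 0 at -0.07 over other cells because of Chil3.

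Cytokine RNA was dominated by Il1b. It had 9345 CPM in neutrophils (9216 to 9476), 3085 in C1q macrophages, 2325 in monocytes and 73.2 in T cells, and a UMI in 94.1% of neutrophils and 1.7% of T cells at 500 UMIs (98.5 and 3.3% without thinning, median depths 950 and 1713). Of 12 cytokine genes compared, Il1b, Il1rn and Osm were higher than in other cells and 0 lower. Of all genes, 13.7% were higher and 19.7% lower. The log2 ratio of the sum was 1.31 by CPM, 1.53 without the genes of the rule and 0.23 per cell. Il1rn, the IL-1 receptor antagonist, had 245 CPM against 82.0, and Osm (oncostatin M) 344 against 98.9. Per cell, Il1b alone was higher and 5 genes were lower.

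Chemokine genes did not pass 2-fold against other cells as a whole. Cxcl2, a CXCR2 ligand, had 2931 CPM in neutrophils, 610 in monocytes, 5422 in C1q macrophages and 2238 in all other cells, and its log2 ratio to other cells of 0.39 became -0.69 per cell. Ccl6 had 1441 CPM and was at 1202 in other cells and 586 in monocytes. Ccl3 had 197 CPM and Ccl4 415, or 161 and 168 without the cells that carried other-type markers, against 359 and 608 in other cells. Tnf was at 81.8 and 81.0 CPM. Il10 had 0 UMIs, which allows up to 1.40 CPM, and Il6 30 UMIs.

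The 20 richest cells had 68.2% of Ccl3 UMIs and 72.1% of Ccl4 UMIs, with the cells that carried other-type markers included. For Il1b the same number of cells had 6.54%. Il1b RNA was thus spread over most neutrophils, with a median of 11 UMIs a cell, and Ccl3 and Ccl4 RNA was concentrated. Without the cells that carried other-type markers, variance over mean in thinned cells was 3.25 in place of 5.93 for Ccl4. For Ccl3 it was 3.17 in place of 3.91. The share in the richest cells was not computed without them.

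A list linked to T cell suppression was higher in 6 of 8 cases, where 13.7% of all genes were, but without its best known members. Arg1 (arginase 1) had 1 UMI, Nos2 3 and Slc27a2 0. Arg2, the mitochondrial arginase, had 369 CPM against 13.9 in other cells and 1.25 in T cells. Ptgs2 (cyclooxygenase-2) had 778 CPM against 77.1, Ifitm1 2674 against 95.5, Cd84 379 against 120, Entpd1 (CD39) 197 against 39.5 and Wfdc17 697 against 341. Cd274 (PD-L1) had 29.9 CPM against 46.6, and Olr1, the oxidized LDL receptor, was lower, at 34.1 against 82.7. Olr1 was not past 2-fold without the genes of the rule in the totals, at -0.90. Per cell, 4 of the 8 were higher and 2 lower.

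Siglecf, a sialic acid receptor reported in a state of lung tumor neutrophils, had 35 UMIs (16.4 CPM) and 17.1 CPM in other cells, which include alveolar macrophages, and its sign flipped without the genes of the rule in the totals. Of 9 genes reported with it, Csf1, the macrophage growth factor, was higher, at 91.6 against 16.8 CPM, and 4 were lower, among them Cstb, Ltc4s and Hilpda. The remaining 4 did not pass 2-fold, with Vegfa at 47.7 and 39.1 CPM. Over all genes, 13.7% were higher and 19.7% lower than in other cells. Against monocytes, 1 of 8 was higher and 1 lower, where 11.8% and 15% of all genes were.

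Interferon-stimulated genes were higher in 5 of 7 cases, where 13.7% of all genes were. The log2 ratio of the sum was 2.16 over other cells and 0.74 over monocytes. Slfn4 had 240 CPM in neutrophils and 2.95 in other cells, Isg15 175 and 28.6 CPM, Irf7 134 and 18.5 CPM and Oasl1 64.5 and 2.45 CPM. Irf7 was at 137 CPM in monocytes, and Slfn5 at 157 there against 64.0 in neutrophils. Isg15 had a UMI in 7.9% of thinned neutrophils and 1.4% of thinned T cells. Among monocyte comparisons, 4 of 8 genes were higher by CPM and 1 per cell.

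Enzymes of eicosanoid synthesis differed within the pathway. Alox5ap, which presents arachidonate to 5-lipoxygenase, had 1406 CPM in neutrophils and 417 in other cells, and Alox5 94.0 and 25 CPM. Lta4h, the next step toward leukotriene B4, had 25.2 and 28.2 CPM. Ltc4s, which leads to cysteinyl leukotrienes, was lower, at 12.6 against 152 CPM, and the prostaglandin enzymes Ptges and Hpgds had 5 and 14 UMIs. Per cell, 0 of the 5 genes compared were higher and 2 were lower.

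Among 12 survival genes, 1 was higher (Mcl1) and 3 lower, where 13.7% and 19.7% of all genes were. Mcl1, on which neutrophil survival is known to depend, had 3043 CPM in neutrophils, 1131 in monocytes, 727 in C1q macrophages and 343 in T cells, and a UMI in 80.8% of thinned neutrophils and 17.6% of thinned T cells. Bcl2 had 19.6 CPM against 73.2 in other cells, and Bax 49.5 against 117. Bcl2a1a, Bcl2a1b and Bcl2a1d had 89.3, 156 and 89.7 CPM, but 66.7 to 87.8% of the 50-base windows at their 3′ ends are shared, and reads cannot be assigned to 1 of them with certainty. Without the genes of the rule in the totals, 3 were higher, Mcl1 and Bcl2l11 among them.

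Of 11 transcriptional regulators, 7 were higher in neutrophils by CPM, where 13.7% of all genes were, and 3 were higher per cell. Mxd1, a MAX partner that opposes MYC and marks late maturation, had 1887 CPM against 81.6 in other cells and 115 in monocytes. Cebpb had 3252 CPM against 757 and 1861 in monocytes, Cebpd 637 against 190 and Spi1 (PU.1) 818 against 217. Klf2 had 1666 CPM against 378. Cebpa had 29.0 against 49.1 CPM, Cebpe 40 UMIs and Gfi1, a regulator of early granulocytes, 2 UMIs. Irf8 did not pass 2-fold at 153 against 120 CPM and was at 20.5 CPM without the cells that carried other-type markers.

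Glycolysis genes were higher in 4 of 15 cases and lower in 0, against 13.7% and 19.7% of all genes. Slc2a3 and Slc2a1, glucose transporters, had 346 and 142 CPM against 10.7 and 29.4 in other cells, Hk3 50.5 against 6.30 and Pkm 453 against 210. Hk2, Ldha, Gapdh and Aldoa had 90.7, 245, 487 and 374 CPM, within 2-fold of the other cells. Per cell, Slc2a3 and Hk3 were higher and 5 genes were lower.

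Cell cycle genes were low, at 63.1 CPM in sum against 217 in other cells, 412 in T cells and 30.5 in neutrophils without other-type markers. Of the 49 UMIs in neutrophils without other-type markers, 35 were in the cell with 1376 UMIs of Camp, Ngp and Ltf. At least 1 such UMI was found in 36 of the 1489 cells. Stk11, the gene for LKB1, had 51.9 CPM in neutrophils (42.7 to 62.5), 35.6 in monocytes, 21.2 in C1q macrophages and 19.4 in T cells. The TdTomato reporter had 245 CPM in neutrophils, against 202 in T cells, 217 in B cells and 1165 in all other kept cells, so neutrophils were at the level of lymphocytes, and GFP, which the trap carries, had 1 UMI.

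**Figure D4:**
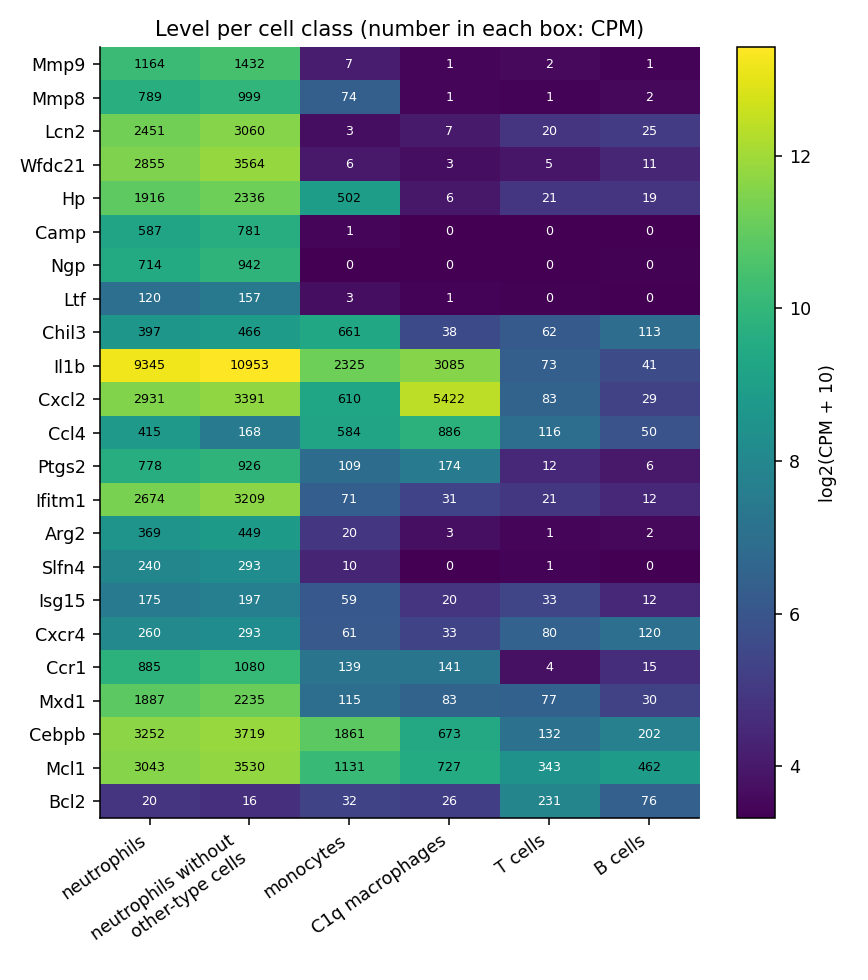
Colors give log2 of CPM plus 10 for named genes in neutrophils, in neutrophils without other-type markers, in monocytes, C1q macrophages, T cells and B cells, and the number in each box is the CPM. Lcn2 is at 2451 CPM in neutrophils and 3.14 in monocytes, Il1b is shared with monocytes and macrophages.

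Monocytes, also taken from the dissociated tumors, were compared directly. This class had 18632 CPM of the dendritic cell list, against 16795 in all other kept cells, and Ccl17 was at 317 CPM in it. Whether the class holds dendritic cells, and their part in the ratios below, was not tested. The 10 genes with the largest ratio were Lcn2, Wfdc21, Ngp, Mmp9, Gm5483, BC100530, G0s2, Camp, Stfa2l1 and Sftpc. Sftpc dropped from 1066 to 99.6 CPM without the cells that carried other-type markers, which it helped to choose. The 10 lowest were Ccl17, F13a1, Mmp12, Ms4a4c, S100a10, Cd209a, Crip1, Tnip3, Ms4a6c and Fn1. F13a1 chose the monocytes, so its ratio is not a result. Crip1 had 791 CPM in neutrophils and 7104 in monocytes, S100a10 122 and 1182 CPM, Fn1 (fibronectin) 93.5 and 812 CPM and Ms4a6c 122 and 1064 CPM. Without the cells that carried other-type markers, neutrophils had 345 CPM of Crip1, 76.6 of S100a10 and 72.8 of Ms4a6c.

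S100a8 and S100a9 were among the genes that varied most between neutrophils, with a variance over mean of 22.1 and 13.4 in cells without other-type markers, beside 22.6 for Camp and 13.5 for Ngp. To describe this axis, the 1385 cells without other-type markers were thinned to 500 UMIs, put in 3 groups of 461 or 462 by S100a8 plus S100a9, and compared over 980 genes with the genes of the rule left out of the totals. The groups had medians of 31.5, 78 and 138 such UMIs and of 813, 864.5 and 1044 UMIs before thinning. This ordering was chosen after the data were seen, and its values are a description. From the lowest to the highest group, 38 genes were at least 2-fold higher and 63 at least 2-fold lower. Retnlg, a gene of the rule, was at 3096, 9567 and 25983 CPM.

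The summed specific and gelatinase granule lists stood highest where S100a8 and S100a9 did. The specific granule list was at 4261, 7303 and 13422 CPM and the gelatinase list at 6933, 10577 and 16900 CPM. Lcn2 was at 1478, 3414 and 6426 CPM, Wfdc21 at 2233, 4450 and 7976 and Mmp8 at 364, 973 and 2549. Camp was at 4.66, 5.20 and 759 CPM and Ngp at 23.3, 93.7 and 1410, so both lay almost wholly in the highest group. BC100530 was at 270, 666 and 1828 CPM, Ly6g at 42.0, 120 and 209 and Fpr1 at 219, 359 and 487. Outside the lists, and chosen after their values were seen, Padi4, the histone-citrullinating enzyme of extracellular traps, was at 55.9, 104 and 221 CPM, and Ifitm6 at 378, 479 and 1322. Other members of these lists did not follow, with Itgam at 336, 385 and 329 CPM, Chil3 at 308, 250 and 335 and Cd177 at 135, 161 and 164, and intervals of the outer ratio that held 0 on the log2 scale.

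Some cytokine, adhesion and enzyme genes stood highest where S100a8 and S100a9 were lowest, and others of the same lists did not. Csf1 was at 210, 120 and 25.3 CPM, Icam1 at 200, 104 and 37.9, Ccl3 at 205, 146 and 44.3 and Tgfb1 at 266, 156 and 94.9. Cxcl2 was at 4816, 4789 and 2916 CPM, Il1b at 16015, 15469 and 11961 and Ptgs2 at 1483, 1041 and 873. Ccrl2 and Ppp1r15a, named after their values were seen, were at 918, 760 and 272 CPM and at 508, 453 and 164. Siglecf, with few UMIs after thinning, was at 42.0, 15.6 and 0 CPM. In the other direction, Ccl6 was at 1730, 2498 and 2644 CPM, Arg2 at 494, 651 and 829, Trem1 at 1235, 1478 and 1613 and the suppressive list at 7385, 9036 and 9791, while Osm was at 457, 547 and 455.

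The 3 groups differed in other respects. The ribosomal list was at 79001, 60950 and 53522 CPM, the macrophage list at 308, 198 and 127 and the dendritic cell list at 373, 286 and 215, and the median mitochondrial share was 0.492, 0.418 and 0.390%. The T and NK list was at 37.3, 15.6 and 6.32 CPM. The part of these differences in the order was not tested. Adhesion, survival and regulator lists differed by no more than 0.07 on the log2 scale between the outer groups.

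**Figure D5:**
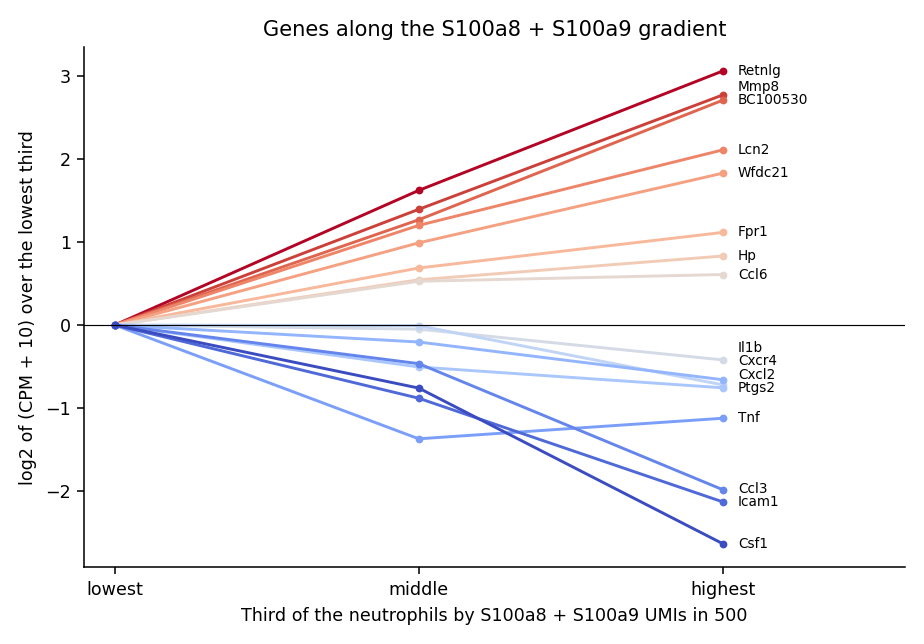
Lines show named genes in the 3 groups of neutrophils ordered by S100a8 plus S100a9 UMIs among 500 (horizontal), as log2 of CPM plus 10 relative to the lowest group (vertical). Retnlg, Mmp8, BC100530, Lcn2 and Wfdc21 lie above 0 in the highest group, and Csf1, Icam1, Ccl3 and Tnf below.

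Splits of the thinned neutrophils by 1 UMI gave 3 more views. The 88 cells (5.91%) with Camp, Ngp or Ltf had 13864 CPM of the gelatinase list against 8188 in the rest, a log2 ratio of 0.76 (0.64 to 0.88), with Mmp8 at 2273 against 828 and Lcn2 at 5977 against 2527. Cxcr4 was at 68.2 against 338 CPM and Il1b at 7773 against 11800 in these cells.

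The 113 cells (7.59%) with Ccl3, Ccl4 or Siglecf had 24496 CPM of the other cytokines against 17221, a log2 ratio of 0.51 (0.43 to 0.59), which became -0.07 without thinning. Tnf was at 354 against 75.6 CPM, Csf1 at 336 against 82.9, Icam1 at 319 against 85.8 and Il1rn at 779 against 282. Other-type markers were found in 21.2% of these cells and 5.81% of the rest, the dendritic cell list was at 2619 against 892 CPM, and their part was not tested beyond the value without those cells, a ratio of 0.67.

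The 149 cells (10.0%) with Ifit1, Ifit3, Rsad2 or Isg15 had 1772 CPM of the other interferon-stimulated genes against 600, a log2 ratio of 1.56 (1.27 to 1.85). Slfn4 was at 631 against 257 CPM, Irf7 at 376 against 122 and Oasl1 at 228 against 70.1, while the cytokine list was at 18067 against 18145. In the same cells the epithelial list was at 980 against 460 CPM and the mitochondrial list at 6523 against 9301, and their part in the difference was not tested. Since 1 UMI in 500 decided membership, the split says nothing of cells in which no UMI was drawn.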

How the data were processed

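Tumor cells were profiled with 10x Genomics 3′ v3 libraries. Per the labels and the study's methods, the authors used Cell Ranger 3.0.2 with mm10, to which GFP and TdTomato had been added, joined the libraries, and deposited raw UMI counts as 1 matrix of 31055 features by 20351 cells. The sources used here do not say whether libraries were brought to equal depth. Cells were kept with at least 200 genes and a mitochondrial share up to the 98th percentile (13.4%). The members and gene lists were chosen with earlier results of these data known. UMIs were summed over cells and scaled to CPM (UMIs per 1000000) with exact Poisson intervals, shares were given exact Clopper-Pearson intervals, and ratios exact conditional intervals, all at 95%. A count of 0 allows 3 UMIs. A 2-fold call used a pseudocount of 10 CPM and a mean of at least 20 CPM. Depth was matched by drawing 500 UMIs a cell without replacement. With the cells of 4 mice not mapped to mice, no test was run. No doublet caller was run, and cells with markers of other types were counted, kept, and left out as an alternative. Besides list members, the 25 highest and 15 lowest genes against other cells, the 10 highest and 10 lowest against monocytes, and the 8 highest and 8 lowest on each split could be named. The screen for other cell types, the S100a8 and S100a9 groups, the 13 granule-rich cells and the sum without Chil3 were chosen after the data were seen. A symbol listed more than once was read from its first entry. Clec7a was not analysed here, and some list members are counted but not reported by name. The sums, intervals and thinning were checked on simulated data. Python 3.11.15, numpy 2.4.6, scipy 1.17.1, pandas 2.3.3 and matplotlib 3.10.9 were used.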

Additional observations from a re-analysis of the deposited data

How the results depend on the processing

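No paired analysis was possible because the cells were not mapped to mice and no value came from a test, and for the same reason no mouse could be left out in turn. Of 107 values of the main comparisons under alternatives, 64 stayed within their counting interval, or within 1.5 times for a count of genes, and 43 moved further. The share of neutrophils among kept cells (7.49%) was 6.77% with at least 40 UMIs of S100a8 plus S100a9, 6.64% with at least 4 of Retnlg, Csf3r and Cxcr2, 3.59% with at least 500 genes a cell, 7.11% without cells above the 95th percentile of UMIs and 6.96% without cells that carried other-type markers. As UMIs per cell, 249 genes were higher and 2616 lower than in other cells and 167 higher than in monocytes, and with at least 500 genes 657 were lower than in other cells. The summed specific granule ratio (-0.07) was -0.12 with at least 10 S100a8 plus S100a9 UMIs, -0.0033 with at least 40, 0.10 with a minimum of 2% of UMIs, -0.22 with at least 4 of Retnlg, Csf3r and Cxcr2, -0.13 with 500 genes, -0.037 without the deepest cells, 0.25 without cells with other-type markers, 0.15 without the genes of the rule in the totals, -1.15 per cell and 4.36 without Chil3. The cytokine ratio (1.31) was 1.26 with at least 40, 1.40 with 2%, 1.28 with at least 4, 1.16 with 500 genes, 1.49 without the deepest cells, 1.496 without cells with other-type markers, 1.53 without the genes of the rule and 0.23 per cell. The interferon-stimulated ratio (2.16) was 2.29, 2.31, 2.39 and 1.08 under the last 4 of these settings. The share with a Mmp9 UMI (48.7%) was 46.0% with 500 genes, 64.8% at 1000 UMIs and 70.4% without thinning. The specific granule split (0.76) was 0.49 without thinning and 1.06 at 2 UMIs, the chemokine split (0.51) -0.075 without thinning and 0.67 without cells with other-type markers, and the interferon split (1.56) 1.15 at 1000 UMIs, 0.88 without thinning and 2.27 at 2 UMIs. The check list in the deepest over the shallowest depth group (-0.91) was -0.66 with 2 groups and -0.40 without cells with other-type markers. Of 273 values of single genes, 139 stayed within their interval and 134 moved further, and the sign flipped for Cxcl2 (UMIs per cell), Cybb (500 genes, and the genes of the rule left out of the totals) and Siglecf (both of these, and without cells with other-type markers). The cause was not tested.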
